A study of Mus musculus with 16 samples.

Results

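The genes described here are 28 genes of cholesterol synthesis and its control by SREBP, the sterol regulatory element binding proteins, chosen by name and known role from the 40840 genes of the count table. The rule used no measured values. The list was chosen with earlier results of these data known, so the counts of called genes below are not those of a blind choice. The 28 genes comprise 8 enzymes of the mevalonate and isoprenoid steps, 12 enzymes that make squalene and build sterols from it, 7 SREBP factors and regulators, and Stard4. The last is a carrier of cholesterol between membranes and a known SREBP2 target. All 28 passed the filter of at least 10 counts in total over all libraries. RNA was sequenced from p53-/-; Myc hepatoblasts, a mouse liver progenitor line that lacks the tumor suppressor p53, overexpresses the Myc oncogene and serves as a model of hepatocellular carcinoma. Cells were exposed to sorafenib, a multikinase inhibitor given in this cancer, at 8.5 µM, or to its vehicle DMSO, for 48 hours or for 7 days, with 4 libraries in each of the 4 groups. Every group carried the p53 deletion and the Myc transgene and came from a single cell line kept in medium with fetal bovine serum, so no group had a wild-type background. The labels number the replicates without saying whether they were separate cultures, and the p-values measure the spread between these libraries.

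Cells make cholesterol from acetyl-CoA through mevalonate, isoprenoid pyrophosphates and squalene, and draw on the same isoprenoids for protein prenylation, dolichol and coenzyme Q. When sterols in the endoplasmic reticulum are low, SCAP carries SREBP to the Golgi, where a pair of proteases, encoded by Mbtps1 and Mbtps2, releases the active factor, and SREBP2 then binds sterol regulatory elements in front of most genes of the pathway. When sterols are high, the INSIG proteins hold SCAP and SREBP back, and Insig1 is itself a SREBP target, which makes its RNA a common readout of the pathway in liver cells.

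RefSeq promoters (build GRCm38.p6), from 250 bases before to 50 bases after the transcription start, were found for 24 of the 28 genes. Sqle, Stard4, Fdps and Fdft1 had no entry. The sterol regulatory element TCACNCCAC, searched on both strands, was present for 1 of these 24 genes (4.17%), against 1.44% of the 27025 genes in the promoter table, and its shorter form CACNCCAC, which every TCACNCCAC contains, for 3 genes (12.5% against 7.12%). Of the motifs of the partner factors, CCAAT, bound by NF-Y, was present for 20 genes (83.3% against 41.1%) and GGGCGG, the GC box bound by SP1, for 21 genes (87.5% against 38.2%). A gene was counted if any of its promoters held the motif. Per promoter, these shares were 65.6% against 37.4% for CCAAT and 78.1% against 35.7% for GGGCGG. The promoter table was not limited to genes expressed in these cells, so the shares among expressed genes are not known from this comparison. The 3 promoters with CACNCCAC are shown because they carry the letters that SREBP is known to bind, for genes that all fell with sorafenib. Each is printed from 250 bases before the start to its last base, with CACNCCAC, or TCACNCCAC where it is complete, in capitals, or their reverse complement where the match is on the other strand. In GRCm39 these letters stand once on the gene's own chromosome and strand, for Hmgcs1 at chr13:120151637-120151886 (plus strand), for Insig1 at chr5:28276160-28276409 (plus strand) and for Acat2 at chr17:13179613-13179862 (minus strand). The rest of the genome was not searched for them.
Hmgcs1: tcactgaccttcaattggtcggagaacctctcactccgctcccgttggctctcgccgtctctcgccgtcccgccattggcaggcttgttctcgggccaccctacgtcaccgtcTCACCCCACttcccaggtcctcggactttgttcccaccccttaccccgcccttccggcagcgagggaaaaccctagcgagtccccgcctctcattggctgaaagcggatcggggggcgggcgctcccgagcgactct
Insig1: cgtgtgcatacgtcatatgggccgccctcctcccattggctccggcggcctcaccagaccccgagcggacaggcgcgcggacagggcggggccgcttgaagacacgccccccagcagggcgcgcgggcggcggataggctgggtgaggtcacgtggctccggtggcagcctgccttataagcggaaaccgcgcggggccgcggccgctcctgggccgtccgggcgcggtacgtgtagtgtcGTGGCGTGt
Acat2: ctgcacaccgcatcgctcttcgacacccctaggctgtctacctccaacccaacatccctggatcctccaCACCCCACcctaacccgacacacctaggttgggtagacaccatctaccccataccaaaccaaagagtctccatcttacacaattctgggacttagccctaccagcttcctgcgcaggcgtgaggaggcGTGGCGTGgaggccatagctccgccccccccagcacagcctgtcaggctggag
Counted from the RefSeq start, the element of Hmgcs1 lay at −137 to −129. That of Insig1 lay at −9 to −2 on the other strand, and Acat2 held a match on each strand, at −181 to −174 and at −53 to −46. In the GENCODE annotation Insig1 starts at chr5:28276315, within its printed stretch and before its match. A match describes the letters only and does not show binding.

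Total counts per library ranged from 16586254 to 30828427, with a median of 26360677, and 20444 genes entered the tests. Trp53 and Myc, the genes altered in the line, were counted in each of the 16 libraries (1268 to 4799 and 4226 to 17797 counts), and which part of Trp53 was deleted is not given in the sources used here. Of 12 hepatoblast and liver progenitor markers, Hnf4a had no count in any library, Alb had none at 48 hours, and Dlk1 was high, at 32234 ± 841 normalized counts in DMSO at 48 hours (mean ± SD, n = 4). Normalized counts are counts scaled by each library's total and its TMM factor, a correction for differences in RNA composition. Fibroblast markers ranged widely in DMSO at 48 hours, from Col3a1 at 70779 ± 657 through Pdgfra at 1528 ± 23.3 to Col1a2 at 86.2 ± 14.4 and Des at 89.5 ± 14.8, and Lrat, a stellate cell marker, was at 0 in all groups. In sorafenib 48 hours replicate 2, genes from near the start of chromosome 15 onward, in chromosome order, were lowered to 0.604 times their level relative to the other replicates, a log2 step of −0.73, whereas the steps of the other 15 libraries reached at most 0.09. This region holds 8 of the genes, Acat2, Sqle, Tm7sf2, Nsdhl, Ebp, Srebf2, Mbtps2 and Stard4, and values at 48 hours are given with and without that library where it matters.

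Sorafenib lowered most of the pathway at both times. After 48 hours, 22 of the 28 genes were lower and 1, Insig2, was higher at a false discovery rate (FDR) under 0.05 (edgeR's quasi-likelihood test over all genes, Benjamini-Hochberg adjustment), whereas 27.7% of all tested genes were called lower and 26.9% higher. After 7 days, 26 were lower and again only Insig2 was higher, against 27.9% and 28.9% of all genes. The median log2 fold change of the 28 genes was −1.05 at 48 hours and −1.78 at 7 days, beside −0.05 and 0.02 over all genes. Of the genes called lower, 16 had fallen at 48 hours by a log2 fold change of at least 1, as had 19 at 7 days. Over all 20444 tested genes, 3690 were called with a change of that size in either direction at 48 hours and 4202 at 7 days. Together the 28 genes took 0.506% ± 0.006 of all counts in DMSO at 48 hours and 0.242% ± 0.007 with sorafenib. At 7 days these shares were 0.458% ± 0.014 and 0.150% ± 0.002, a 3.06-fold difference. The libraries of both treatments did not overlap for 22 genes that were lower and 1 that was higher at 48 hours, where 24.9% and 23.1% of all genes were apart in the same direction. At 7 days they did not overlap for 27 lower genes and 1 higher gene, against 28.4% and 28.5% of all genes. For a gene whose libraries did not overlap, the exact two-sided permutation test of 4 against 4 libraries gave 0.0286, the smallest p it allows. Without sorafenib 48 hours replicate 2, 22 genes were lower and 2 higher at 48 hours, Mbtps2 being added, while 28.6% of all genes were called lower and 28.5% higher.

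**Figure D1:**
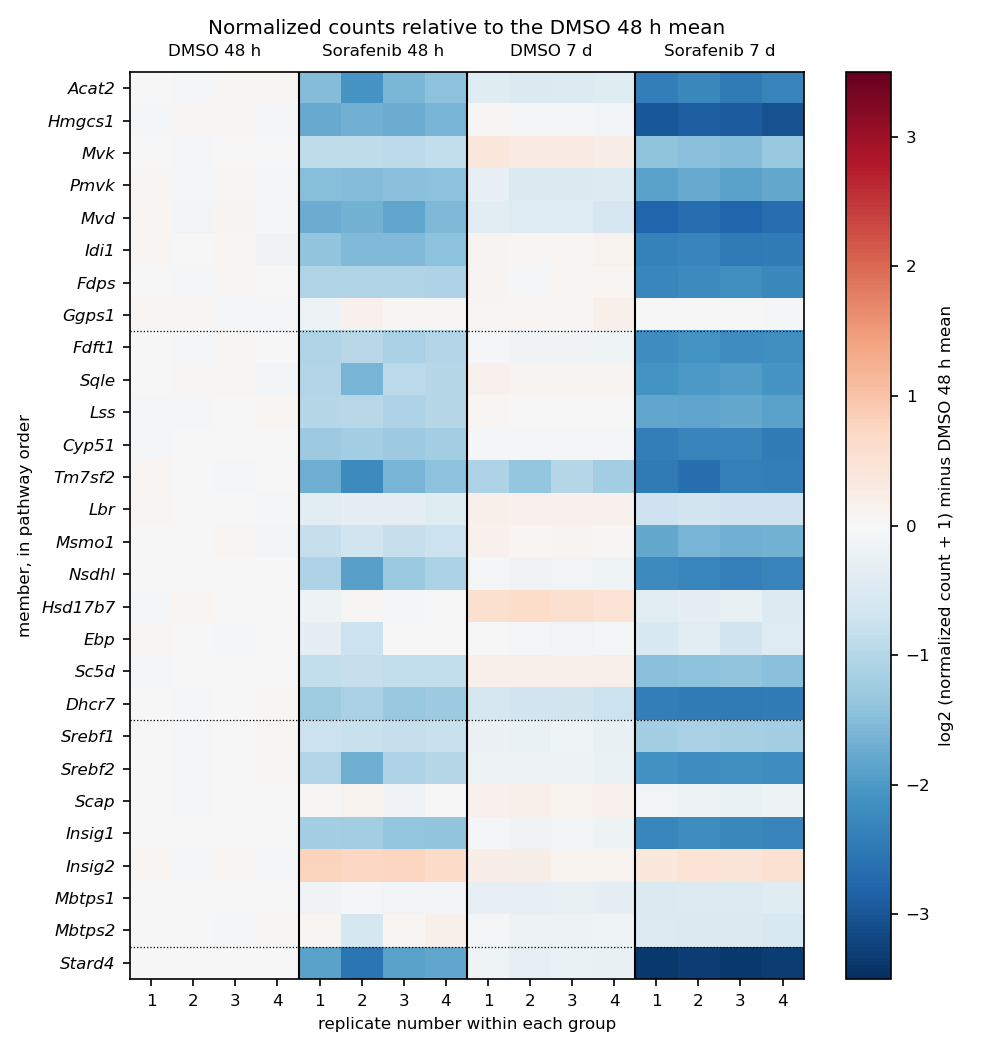
Each cell is a library (columns, by group and replicate number) and a gene (rows, in pathway order), coloured by log2 (normalized count + 1) minus the mean of the 4 DMSO 48 h libraries, with dotted lines between the roles. The sorafenib 7 d columns are the darkest for most genes, Insig2 is above DMSO in both sorafenib groups, and replicate 2 of sorafenib 48 h is lower than its group in the 8 genes of the lowered region.

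Among the enzymes of the mevalonate and isoprenoid steps, 7 of 8 were lower at each time, with a median log2 fold change of −1.48 at 48 hours and −2.09 at 7 days. Hmgcs1, the synthase that makes HMG-CoA, had the highest level per kilobase of canonical transcript of them in both DMSO groups, and was below Fdps with sorafenib. The order with sorafenib depends on the length used. Per kilobase of all annotated exons, Hmgcs1 was above Fdps, at 37.4 against 17.8 at 48 hours and 15.6 against 7.93 at 7 days. Its normalized counts were 15557, 16376, 16440 and 15680 with DMSO for 48 hours and 4751, 5009.7, 4845 and 5227 with sorafenib. At 7 days they were 16320, 15434, 15419 and 15031 with DMSO and 2033, 2170.1, 2122 and 1949 with sorafenib. No sorafenib library came near a DMSO library, and the 4 libraries at 7 days were below all 4 at 48 hours. Hmgcs1 was thus 3.23-fold lower at 48 hours (log2 fold change −1.69 ± 0.04 SE) and 7.51-fold lower at 7 days (−2.91 ± 0.04). Idi1, the isomerase that makes dimethylallyl pyrophosphate, went from 792 to 912 normalized counts with DMSO to 294 to 331 with sorafenib at 48 hours. At 7 days it lay between 902 and 941 with DMSO and between 154 and 172 with sorafenib, a 5.66-fold fall. Fdps, the farnesyl pyrophosphate synthase at the branch to isoprenoids, was 2.08-fold lower at 48 hours (4554 ± 98.8 to 2187 ± 26.1) and 4.81-fold lower at 7 days (4691 ± 173 to 975 ± 42.2).

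The other mevalonate enzymes fell by less between the times or not at all. Mvd, the decarboxylase that makes isopentenyl pyrophosphate, had log2 fold changes of −1.70 ± 0.06 and −2.26 ± 0.07, and Mvk, the mevalonate kinase, −0.89 ± 0.05 and −1.74 ± 0.05. Pmvk, the kinase after Mvk, had −1.48 ± 0.05 at 48 hours and −1.37 ± 0.05 at 7 days, so its fall did not deepen. Acat2, the cytosolic thiolase that starts the pathway, lies in the lowered region. Its sorafenib libraries at 48 hours had 1135, 771, 1065 and 1207 normalized counts, of which 771 is replicate 2, against 3166 to 3329.5 with DMSO. Acat2 had −1.64 ± 0.08 at 48 hours, or −1.52 ± 0.04 without that library, and −1.92 ± 0.09 at 7 days. Ggps1, which makes the geranylgeranyl pyrophosphate used in protein prenylation, was the exception. It had 1475, 1468, 1349.7 and 1345 normalized counts with DMSO and 1256, 1577, 1455 and 1450.3 with sorafenib at 48 hours, which overlap. At 7 days it had 1468, 1465, 1449 and 1599 with DMSO and 1424, 1394, 1413 and 1338 with sorafenib, apart by a narrow gap. The log2 fold change of Ggps1 was 0.03 (95% interval −0.08 to 0.14) at 48 hours and −0.10 (−0.21 to 0.0049) at 7 days, and neither was called. Without sorafenib 48 hours replicate 2, Ggps1 was called lower at 7 days (log2 −0.10 ± 0.04), as it was with only the libraries compared (−0.11) and without sorafenib 48 hours replicate 1.

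Of the 12 squalene and sterol enzymes, 10 were lower at 48 hours and all 12 at 7 days, with a median log2 fold change of −1.03 and −1.78. Fdft1, the squalene synthase, was 2.06-fold lower at 48 hours and 4.05-fold lower at 7 days. Sqle, the squalene epoxidase, had 7079, 7294, 7179 and 6635 normalized counts with DMSO and 3490, 2297, 3634 and 3558 with sorafenib at 48 hours, where replicate 2 is the low value. At 7 days Sqle had 7573 to 7864 with DMSO and 1645 to 1799 with sorafenib. The groups were far apart at both times. Its log2 fold change was −1.12 ± 0.09 at 48 hours, −0.98 ± 0.03 without replicate 2, and −2.15 ± 0.09 at 7 days. Lss, which closes the ring to lanosterol, had −1.01 ± 0.04 and −1.84 ± 0.04. Cyp51, the lanosterol demethylase, had 10394, 10787, 10477 and 10751 normalized counts with DMSO and 4358, 4605, 4391 and 4539 with sorafenib at 48 hours. At 7 days its libraries had 10292, 10080.0, 10305 and 10123 with DMSO and 1966, 2142, 2117 and 1953 with sorafenib. Cyp51 was 2.37-fold lower at 48 hours and 4.99-fold lower at 7 days, again with no overlap.

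The enzymes that remove the methyl groups of lanosterol differed among themselves. Msmo1, the methyl sterol oxidase, had log2 fold changes of −0.77 ± 0.04 and −1.77 ± 0.05, and Nsdhl, the dehydrogenase that acts after it, −1.30 ± 0.10 (−1.17 ± 0.04 without replicate 2) and −2.21 ± 0.11. Hsd17b7, the ketoreductase of the same steps, was not called at 48 hours, with 771, 843, 797 and 804 normalized counts with DMSO and 707, 821, 776 and 813 with sorafenib. At 7 days it had 1190.4, 1249, 1196 and 1124 with DMSO and 605, 651, 669.96 and 575 with sorafenib, a 1.90-fold fall. The change of Hsd17b7 thus passed the test only at 7 days, and the difference between the times was called (log2 −0.88 ± 0.08). Its DMSO libraries at 7 days were all above those at 48 hours (log2 0.57 ± 0.05). Between the sorafenib groups the log2 fold change of Hsd17b7 was −0.32 ± 0.06, so the difference includes a rise in vehicle cells. Ebp, the sterol isomerase, was not called at 48 hours (log2 −0.22 ± 0.10, or −0.10 ± 0.07 without replicate 2) and was lower at 7 days (−0.46 ± 0.10). At 48 hours it was called lower with total counts only (−0.30), with at least 10 counts in every sample (−0.26) and without sorafenib 48 hours replicate 3 or 4. Sc5d, the sterol desaturase, had −0.85 ± 0.03 and −1.61 ± 0.03, and Dhcr7, the reductase that makes cholesterol from its last precursor, −1.25 ± 0.04 and −1.78 ± 0.04.

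Tm7sf2 and Lbr encode a pair of reductases for the same step, the double bond left by Cyp51. Tm7sf2 had 689, 641, 621 and 656 normalized counts with DMSO and 199, 138, 211 and 239 with sorafenib at 48 hours, and 306, 254, 324 and 277 with DMSO and 117, 103, 122 and 121 with sorafenib at 7 days. Its DMSO libraries at 7 days were all below those at 48 hours. The log2 fold change of Tm7sf2 was −1.71 ± 0.10 at 48 hours (−1.59 ± 0.08 without replicate 2) and −1.33 ± 0.12 at 7 days. Lbr, which also anchors chromatin at the inner nuclear membrane, had −0.37 ± 0.03 and −0.87 ± 0.03. Per kilobase of transcript, Lbr was 2.01 ± 0.07 times the level of Tm7sf2 in DMSO at 48 hours and 5.39 ± 1.57 times with sorafenib, or 4.63 ± 0.45 without replicate 2. At 7 days the ratio was 5.07 ± 0.53 with DMSO and 6.94 ± 0.69 with sorafenib, so that the change between the DMSO groups was as wide as that with sorafenib at 48 hours without replicate 2.

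**Figure D2:**
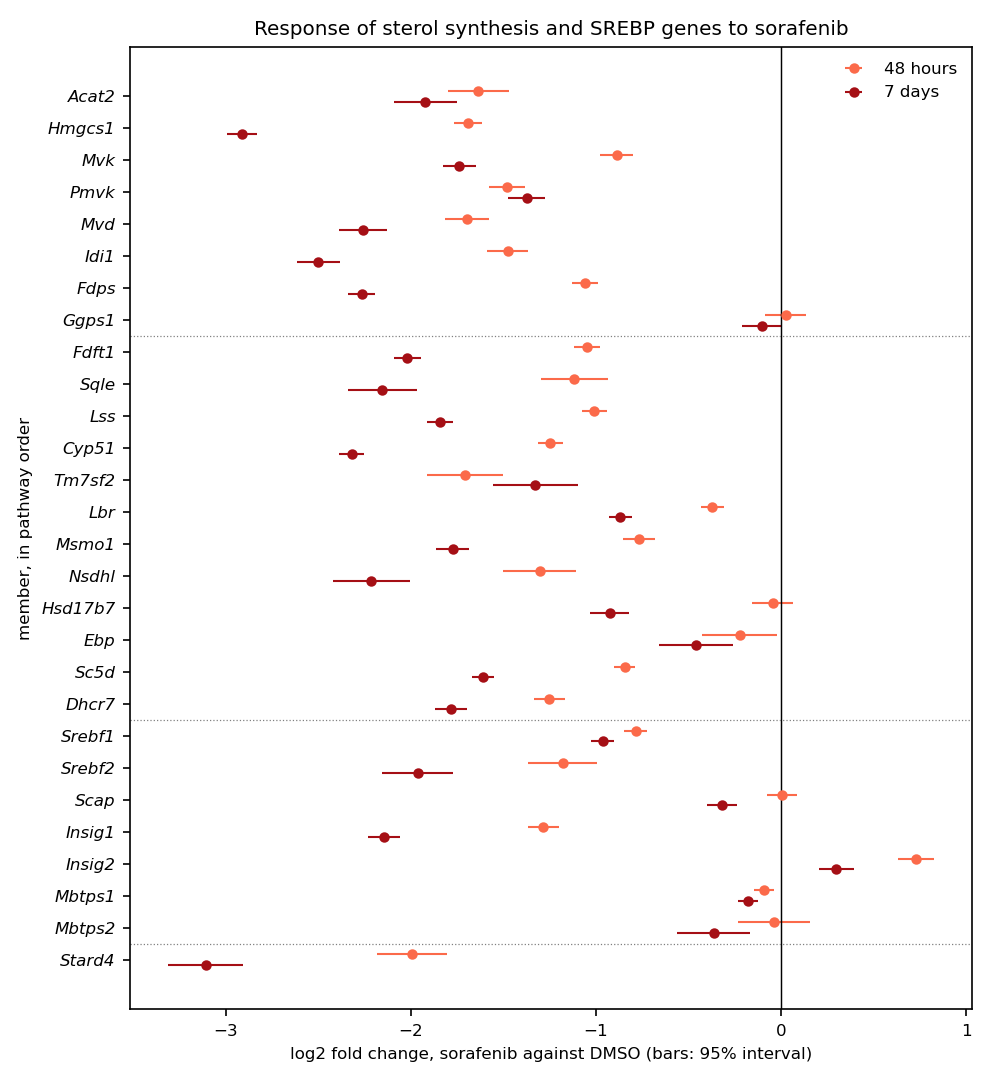
The horizontal axis is the log2 fold change of sorafenib against DMSO and the rows are the 28 genes in pathway order, with 48 hours in orange, 7 days in dark red and 95% intervals as bars. Most genes lie further left at 7 days, from −2.91 for Hmgcs1 and −3.11 for Stard4, while Ggps1 stays near 0, Pmvk and Tm7sf2 do not move left and Insig2 lies to the right at both times.

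The SREBP genes fell, with SREBP2 falling more than SREBP1. Srebf2, which encodes the factor that drives sterol synthesis, had 16675, 16284, 16514 and 17326 normalized counts with DMSO and 8127, 5116, 7896 and 8323 with sorafenib at 48 hours. At 7 days Srebf2 had 14764, 14760.0, 14686 and 14312 with DMSO and 3833, 3725, 3779 and 3675 with sorafenib. All sorafenib libraries lay below all DMSO libraries, and replicate 2 was the low value at 48 hours. The log2 fold change of Srebf2 was −1.18 ± 0.09 at 48 hours, −1.04 ± 0.03 without replicate 2, and −1.96 ± 0.10 at 7 days. Srebf1, whose protein acts mainly on fatty acid synthesis, had −0.78 ± 0.03 and −0.96 ± 0.03, from 3807 ± 109 to 1952 ± 28.4 at 7 days. Per kilobase of transcript, Srebf2 was 3.24 ± 0.02 times Srebf1 in DMSO at 48 hours and 2.47 ± 0.52 times with sorafenib, or 2.72 ± 0.06 without replicate 2. At 7 days the ratio was 3.28 ± 0.08 with DMSO and 1.64 ± 0.04 with sorafenib, and the ranges of the groups did not overlap at either time.

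The INSIG genes moved in opposite directions. Insig1 had 4067, 4136, 4112 and 4131 normalized counts with DMSO and 1817, 1757, 1614 and 1581 with sorafenib at 48 hours, and 3913, 3805, 3862 and 3656 with DMSO and 845, 906, 867 and 826 with sorafenib at 7 days. Insig1 was 2.43-fold lower at 48 hours and 4.42-fold lower at 7 days. Insig2, the other retention protein, had 574, 527, 581 and 526 with DMSO and 949.9, 912, 923 and 875 with sorafenib at 48 hours, and 644, 633, 603 and 595 with DMSO and 713, 775, 759 and 793 with sorafenib at 7 days. Every sorafenib library of Insig2 was above every DMSO library of its time. Insig2 was 1.66-fold higher at 48 hours (log2 0.73 ± 0.05) and 1.23-fold higher at 7 days (0.30 ± 0.05). Per kilobase of transcript, the level of Insig2 was 0.132 ± 0.008 times that of Insig1 in DMSO at 48 hours and 0.532 ± 0.025 times with sorafenib. At 7 days it was 0.160 ± 0.004 times with DMSO and 0.868 ± 0.051 times with sorafenib, and Insig1 stayed the more abundant of the pair in all 4 groups.

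The machinery that carries and cuts SREBP changed little. Scap, the escort of SREBP, was not called at 48 hours (log2 0.0070 ± 0.0418, and −0.063 when scaled by total counts alone) and was 1.25-fold lower at 7 days. Mbtps1, which makes the first cut, was lower at both times by small amounts, with log2 fold changes of −0.09 ± 0.03 and −0.18 ± 0.03, and the call at 48 hours was lost without the filter on low counts (−0.050). Mbtps2, which makes the last cut, lies in the lowered region and had sorafenib values at 48 hours of 1542, 966, 1556 and 1653, against 1427 to 1521 with DMSO. Its log2 fold change at 48 hours was −0.04 ± 0.10 and was not called with replicate 2, and 0.10 ± 0.04 and called higher without it. At 7 days Mbtps2 was lower, by −0.36 ± 0.10.

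**Figure D3:**
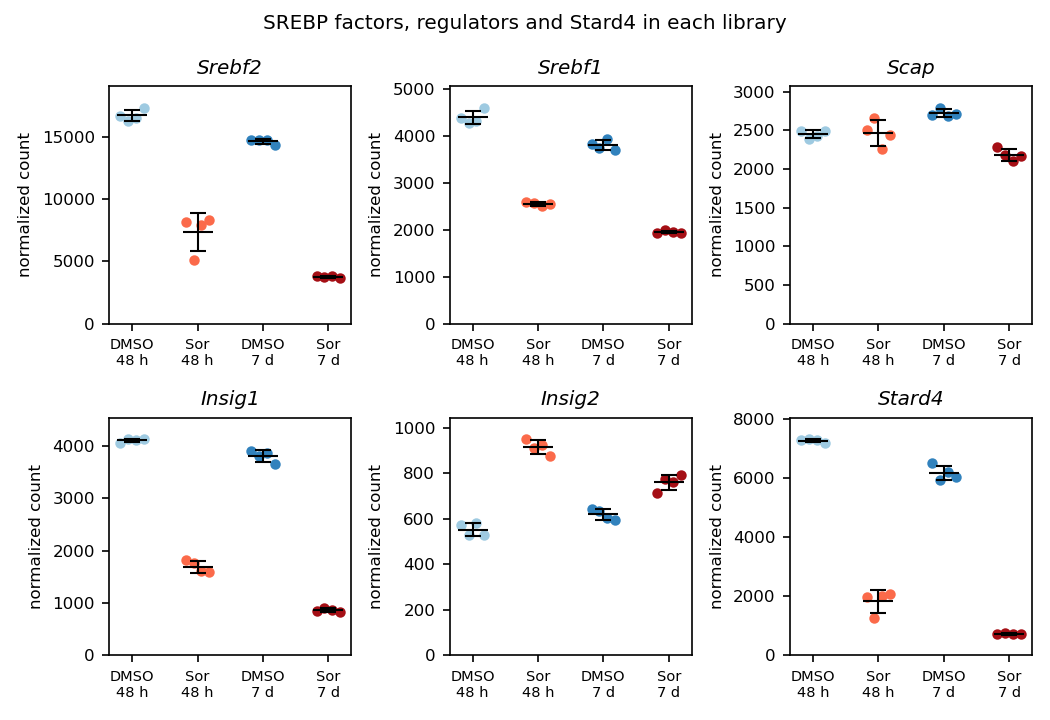
Each panel shows the normalized counts of a gene in the 4 libraries of each group as points, with the mean and SD in black and an axis from 0 (Sor, sorafenib). Srebf2, Insig1 and Stard4 fall at 48 hours and again at 7 days, Srebf1 falls by less, Scap stays within 2105 and 2796, and Insig2 is higher with sorafenib at both times.

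Stard4 had the lowest log2 fold change of the 28 genes at both times. It had 7298, 7317, 7270.0 and 7190 normalized counts with DMSO and 1981, 1245, 1992 and 2052 with sorafenib at 48 hours. At 7 days it had 6508, 5947, 6204 and 6049 with DMSO and 696, 744, 695 and 727 with sorafenib. The fall was 3.98-fold at 48 hours (log2 −1.99 ± 0.10, or −1.85 ± 0.03 without replicate 2, the low value) and 8.62-fold at 7 days (−3.11 ± 0.10).

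The fall was deeper at 7 days for most genes. The interaction of treatment and time was called lower for 21 of the 28 genes and higher for none, against 21.3% and 15.5% of all genes, with a median of −0.77 beside 0.02 over all genes. For the other 7 genes, Acat2, Pmvk, Ggps1, Tm7sf2, Ebp, Mbtps1 and Mbtps2, the difference between the times was not called, with log2 values between −0.33 and 0.38. The steepest differences were those of Hmgcs1 (log2 −1.22 ± 0.05), Fdps (−1.21 ± 0.05), Stard4 (−1.11 ± 0.14), Cyp51 (−1.07 ± 0.05) and Sqle (−1.04 ± 0.13). This order depends on sorafenib 48 hours replicate 2, in which Stard4, Sqle and Nsdhl lie in the lowered region. With that library left out, Stard4 was the steepest (−1.25 ± 0.04), before Hmgcs1 (−1.21 ± 0.04), Fdps (−1.20 ± 0.05) and Sqle (−1.17 ± 0.04). In that fit Nsdhl was at −1.05 ± 0.06, against −0.91 ± 0.15 with all libraries. Insig2 was also among the 21, since its rise was smaller at 7 days (−0.43 ± 0.07), and so was Srebf1 (−0.18 ± 0.05), whose call was lost with total counts only (−0.085). For 26 of the 28 genes the log2 fold change at 7 days was below that at 48 hours, with Pmvk and Tm7sf2 as the exceptions. The same count was not made over all genes. Across the 28 genes, which are not independent and share the libraries of each group, the log2 fold changes at both times had a Pearson r of 0.890 and a Spearman rho of 0.790. Without sorafenib 48 hours replicate 2, 24 genes were called lower, Acat2, Ebp and Mbtps2 being added, against 24.9% of all genes.

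Between the vehicle groups genes of the pathway were called in both directions, as were genes of the whole table. In DMSO at 7 days against DMSO at 48 hours, 6 genes were higher (Mvk, Lbr, Hsd17b7, Sc5d, Scap and Insig2) and 10 were lower. Over all genes 23.9% were called higher and 25.5% lower. The median of the 28 genes was −0.05, beside −0.01 over all genes. The largest of these changes were those of Tm7sf2 (log2 −1.17 ± 0.10), Dhcr7 (−0.67 ± 0.04) and Hsd17b7 (0.57 ± 0.05). The others called lower were Acat2, Pmvk, Mvd, Fdft1, Srebf1, Insig1, Mbtps1 and Stard4, with log2 fold changes between −0.46 and −0.11. The call of Stard4 was lost with DESeq2 (−0.22), with its size factors in edgeR, without the filter and in 7 of the 16 fits that leave out a library, and that of Insig1 with those size factors (−0.094), without the filter and in 3 such fits. Without sorafenib 48 hours replicate 2, which enters this comparison through the shared spread, 8 were higher and 13 lower, Sqle, Msmo1, Nsdhl, Srebf2 and Mbtps2 being added. In that fit 27.1% of all genes were called higher and 28.2% lower. Under sorafenib, 27 of the 28 genes were lower at 7 days than at 48 hours and none was higher, against 22.3% and 17.5% of all genes, and the median was −0.81. Ggps1 was not called in that comparison. The libraries of Ebp overlapped (log2 −0.28 ± 0.11), and its call was lost in 10 of the 16 fits that leave out a library and with DESeq2, other scalings, the stricter filter, only the libraries compared or a replicate block. Stard4 (−1.35 ± 0.10, or −1.49 ± 0.04 without sorafenib 48 hours replicate 2), Hmgcs1 (−1.26 ± 0.04), Dhcr7 (−1.20 ± 0.05) and Fdps (−1.16 ± 0.04) fell by the most.

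Levels between genes were compared as CPM per kilobase of the canonical GENCODE transcript. In DMSO at 48 hours, Hmgcs1 was the highest of the 28 genes at 155.5 ± 4.5, before Fdps at 139 ± 3.0, Srebf2 at 131 ± 3.5, Sqle at 99.9 ± 4.1 and Cyp51 at 84.9 ± 1.6. Msmo1, Mbtps1, Insig1, Stard4 and Fdft1 followed, between 78.7 and 52.8. Pmvk, Acat2, Dhcr7, Srebf1, Lbr, Lss, Mvd and Sc5d lay between 50.9 and 30.0, and Nsdhl, Scap, Mbtps2, Tm7sf2, Idi1, Ggps1, Ebp, Mvk and Insig2 between 27.9 and 7.88. Hsd17b7 was the lowest at 6.93 ± 0.26. The order depends on the length used, since with all annotated exon bases Fdps was at 37.1 and rank 6, and genes moved by up to 7 ranks, and by counts alone, where Srebf2 was first, by up to 9. In this order 9 of the 27 pairs of neighbours overlapped in their libraries, among them Fdps and Srebf2, Pmvk and Acat2, Scap and Mbtps2, and Ggps1 and Ebp. With sorafenib for 7 days, Mbtps1 was the highest at 47.6 ± 1.1, above Fdps at 29.7 ± 1.3 and Srebf2 at 29.4 ± 0.5, and Hmgcs1 was at 20.1 ± 1.0.

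**Figure D4:**
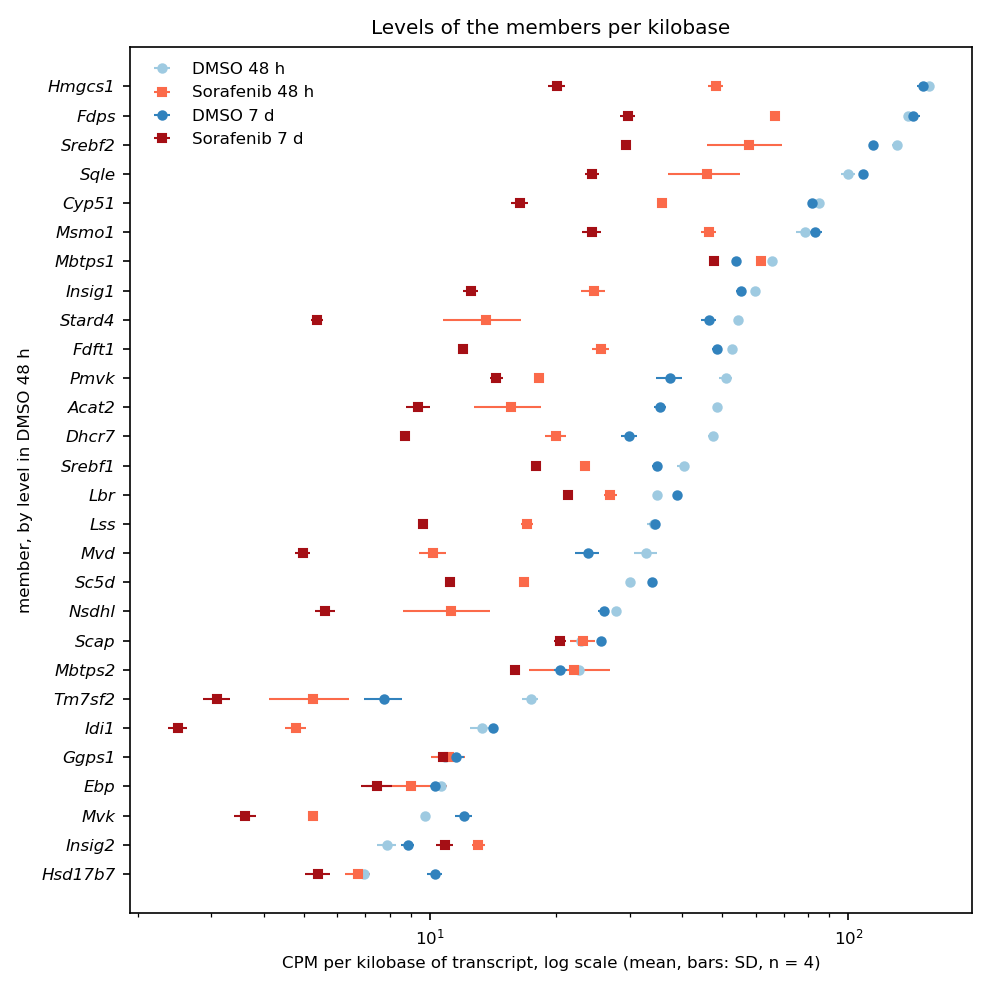
The horizontal axis is CPM per kilobase of transcript on a log scale and the rows are the 28 genes in the order of their level in DMSO 48 h, with points for the mean of 4 libraries of each group and bars for the SD. The DMSO groups in blue run from 155.5 for Hmgcs1 to 6.93 for Hsd17b7 at 48 h. Most sorafenib points in red lie to their left, while those of Insig2 lie to their right.

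Genes of neighbouring pathways gave a mixed picture. In these comparisons 27.7% of all genes were called lower and 26.9% higher at 48 hours. At 7 days these shares were 27.9% and 28.9%. Of 14 SREBP1 targets of fatty acid synthesis, 12 were lower and 2 higher at 48 hours, and 12 were lower and 1 higher at 7 days, with a median log2 fold change of −0.65 and −0.80. Elovl6, a fatty acid elongase, went from 5703 ± 119 to 1294 ± 69.4 normalized counts at 7 days (log2 −2.14 ± 0.04), Fads2, a desaturase, had −2.42 ± 0.10 and Lpin1, a phosphatidate phosphatase, −2.31 ± 0.11. Of 14 genes that use isoprenoids, 9 were higher and 2 lower at 48 hours, and 3 were higher and 7 lower at 7 days (3 and 8 without sorafenib 48 hours replicate 2). Coq2 and Pdss2, of coenzyme Q synthesis, were among the higher at 7 days (0.56 ± 0.04 and 0.46 ± 0.07), and Fnta, a prenyltransferase subunit, was lower (−0.32 ± 0.05). Of 13 genes of the sterol sensors and degradation factors of the endoplasmic reticulum, 7 were higher and 4 lower at 48 hours and 7 higher and 5 lower at 7 days. Without sorafenib 48 hours replicate 2, 8 were higher and 4 lower at 48 hours and 7 higher and 6 lower at 7 days. Paqr3, which tethers SCAP to the Golgi, rose from 221 ± 16.8 to 1544 ± 60.2 at 48 hours (2.80 ± 0.06) and from 241 ± 11.7 to 1224 ± 72.2 at 7 days (2.34 ± 0.06). Erlin1, which restrains SREBP in the endoplasmic reticulum, rose at 7 days by 1.66 ± 0.10, and Tmem97, a regulator of cholesterol transport, was lower (−0.78 ± 0.04). Of 9 DNA partners and turnover factors of SREBP, 2 were higher and 3 lower at 48 hours (3 and 3 without sorafenib 48 hours replicate 2). These counts at 48 hours lie near the shares of all genes. At 7 days none was higher and 3 lower (1 and 5 without that library), the 3 being Nfyc (−0.73 ± 0.05), Sp1 (−0.40 ± 0.09) and Nfyb (−0.29 ± 0.05).

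Stress, proliferation and cell type markers were counted in the same comparisons, in which 27.7% of all genes were called lower and 26.9% higher at 48 hours and 27.9% and 28.9% at 7 days. The part of these groups in the result was not tested. Of 8 ATF4 targets of the integrated stress response, 7 were higher and 1 lower at 48 hours, and all 8 were higher at 7 days. At 7 days Trib3 was at 361 ± 23.7 normalized counts in DMSO and 4844 ± 129 with sorafenib. Chac1 and Ddit3 were higher at 7 days by 2.76 ± 0.07 and 2.90 ± 0.05 on the log2 scale. Of 10 proliferation genes, 5 were lower and 1 higher at 48 hours (6 and 1 without sorafenib 48 hours replicate 2) and 8 lower and 1 higher at 7 days. Mki67 and Mcm5 were lower at 7 days (−0.80 ± 0.03 and −0.54 ± 0.03) and Mcm2 higher (0.38 ± 0.03). The summed normalized counts of these 10 genes ranged from 76949 to 79097 and from 79376 to 79970 in the DMSO groups and from 65642 to 69007 and from 64530 to 65819 with sorafenib, at 48 hours and 7 days in turn. The summed hepatoblast markers ranged from 35050 to 36443 with DMSO and 12962 to 14873 with sorafenib at 48 hours, and from 19068 to 20781 and 7063 to 7341 at 7 days. Most of this sum was Dlk1, at 10444 ± 847 with sorafenib at 48 hours, while Sox9 and Foxa2 rose at that time (log2 1.64 ± 0.08 and 1.77 ± 0.08). Of the 9 tested hepatoblast markers, 3 were higher and 5 lower at 48 hours and 2 higher and 7 lower at 7 days, Dlk1 (−2.06 ± 0.05) and Krt18 (−0.92 ± 0.12) being lower and Sox9 (1.37 ± 0.07) higher at 7 days. Of the 7 tested fibroblast and stellate markers, 3 were higher and 3 lower at 48 hours and 3 higher and 4 lower at 7 days, with Acta2 higher by 1.39 ± 0.09 and Pdgfra and Col3a1 lower by −2.26 ± 0.06 and −2.13 ± 0.04 at 7 days. The sum of all 8 fibroblast markers ranged from 119702 to 121953 with DMSO and 184170.0 to 199996 with sorafenib at 48 hours, and from 110925 to 114600.0 and 125073 to 129789 at 7 days. Of 7 immune markers, 1 of the 3 tested was lower and none higher at each time, and their sum was at most 154.9 in any library. Of 5 endothelial markers, 1 of the 4 tested was higher and 1 lower at each time, and their sum was at most 229.8. In a bulk sample, fewer cells that express a gene and less RNA per cell cannot be told apart.

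The counts of 7 genes carry a further limit. At least 10% of the annotated exon bases of Fdft1, Cyp51, Mvd, Lbr, Hmgcs1, Tm7sf2 and Mbtps2 are shared with a neighbouring gene, up to 24.8% for Fdft1 with Ctsb, and the strand setting of the counting is not given in the sources used here. For Mbtps2 and Tm7sf2 the neighbours, Yy2 and Vps51, lie on the same strand.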

How the data were processed

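RNA-seq was performed on 16 libraries of p53-/-; Myc hepatoblasts. The authors aligned reads to GRCm39 with STAR 2.7.1a and deposited raw counts per gene from featureCounts 2.0.6, tools and versions being from the submitters' processing notes, which also name DESeq2 1.40.2. The gene annotation and strand setting are not given in the sources used here. Of the count columns, 0 could not be mapped to a sample. Here, genes with at least 10 counts in total were scaled by TMM and tested in edgeR 4.0.16 (R 4.3.3) with the quasi-likelihood test, a mean per group over all libraries and Benjamini-Hochberg adjustment (FDR under 0.05). The procedure was tested on simulated data. Alternatives were DESeq2 1.42.0, other scalings and filters, a fold threshold, a replicate block, only the compared libraries, and leaving out each library. All 28 genes are named, with up to 3 per other list by change at 7 days. Col1a2, Des and Foxa2 were named after their values were seen. Members and lists were chosen with earlier results of these data known. Correlations of deviations between same-numbered libraries ran from −0.050 to 0.128, with means of −0.008 at 48 hours and 0.072 at 7 days. For libraries of different number the means were 0.003 and −0.023. Such values cannot decide whether same-numbered libraries were handled together, and the main fit did not pair them. Counts limit precision through counting error and the spread of 4 libraries. Normalized counts are counts divided by each library's effective size relative to the geometric mean of all libraries.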

Additional observations from a re-analysis of the deposited data

Results flagged for a closer look

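In 10 of 112 groups of 4 libraries (28 genes in 4 groups), 1 library stood further from the others than Dixon's 95% critical value for 4 samples allows, which chance does in about 1 in 20 groups. Of these, 4 came from sorafenib 48 hours replicate 2 and from genes of its lowered region. The gap as a share of the range was 0.912 for Sqle (2297 against a median of 3558 normalized counts in the other 3 libraries), 0.892 for Srebf2 (5116 against 8127), 0.871 for Mbtps2 (966 against 1556) and 0.930 for Stard4 (1245 against 1992). The part of this library in the results at 48 hours is given by the values without it in the report. The lowest library was also apart for Lss in sorafenib 48 hours replicate 3 (0.889) and for Srebf2 in DMSO 7 days replicate 4 (0.830). The highest library was apart in DMSO 7 days replicate 1 for Pmvk (0.850), Sqle (0.930) and Lbr (0.915), and in DMSO 7 days replicate 4 for Ggps1 (0.868).

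The sorafenib effect differed between the times for 21 genes by the interaction term in edgeR's quasi-likelihood test (Benjamini-Hochberg FDR under 0.05), each with a lower log2 fold change at 7 days. Among the mevalonate enzymes the difference was −1.22 for Hmgcs1, −1.21 for Fdps, −1.02 for Idi1, −0.85 for Mvk and −0.56 for Mvd. Among the sterol enzymes it was −1.07 for Cyp51, −1.04 for Sqle, −1.01 for Msmo1, −0.97 for Fdft1, −0.91 for Nsdhl, −0.88 for Hsd17b7, −0.83 for Lss, −0.76 for Sc5d, −0.53 for Dhcr7 and −0.50 for Lbr. Among the regulators and Stard4 it was −1.11 for Stard4, −0.86 for Insig1, −0.78 for Srebf2, −0.43 for Insig2, −0.33 for Scap and −0.18 for Srebf1. Without sorafenib 48 hours replicate 2, the difference was −1.25 for Stard4, −1.17 for Sqle, −1.05 for Nsdhl and −0.92 for Srebf2, genes of its lowered region. For Insig2 the difference is a smaller rise, and for the other 20 genes it is a lower level relative to DMSO.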

How the results depend on the processing

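Without any single library, 22 to 23 genes were lower at 48 hours and 26 to 27 at 7 days, 1 to 2 and 1 were higher, and the interaction was lower for 21 to 24 and higher for 0 to 1. Between the DMSO groups 6 to 8 were higher and 8 to 13 lower, and under sorafenib 26 to 27 were lower. Over all alternatives the median log2 fold change stayed between −1.12 and −1.01 at 48 hours and between −1.80 and −1.75 at 7 days. When a log2 change of 1 or more in size was also required, fewer genes passed by construction, with 0 higher at either time or between the DMSO groups, 7 lower in the interaction, 1 lower between the DMSO groups and 8 lower between the sorafenib groups. Over all genes, in either direction, 1965 passed in the interaction, 2242 between the DMSO groups and 1727 between the sorafenib groups. The interaction was called higher for 1 gene with DESeq2, 1 with total counts only and 2 with at least 10 counts in every sample (Tm7sf2 each time, with Pmvk in the last) and lower for 20 with total counts only, Srebf1 losing its call, and the cause was not tested. Values near 0 changed sign. At 48 hours Scap was −0.011 with DESeq2, −0.0087 with its size factors in edgeR, −0.063 with total counts only, −0.032 with at least 10 counts in every sample, −0.017 with only the libraries compared and −0.034 to 0.019 without single libraries. Ggps1 was −0.045 with total counts only, −0.015 with 10 counts in every sample, −0.00062 with only the libraries compared and −0.027 to 0.049 without single libraries, and under sorafenib over time 0.0095 with 10 counts in every sample. Mbtps2 at 48 hours was 0.0055 without the filter and −0.14 to 0.10 without single libraries. The interaction of Mbtps1 was 0.0064 with total counts only. Between the DMSO groups, Fdps was −0.016 and Lss −0.050 with total counts only, and Lss was −0.0050 with 10 counts in every sample and −0.013 to 0.025 without single libraries. With a replicate block, 22 genes were lower at 48 hours and 26 at 7 days, and 1 of 140 member values lost its call (Ebp between the sorafenib groups, log2 −0.28, which was also lost with DESeq2, other scalings, the stricter filter and only the libraries compared); same-numbered libraries were not shown to be paired. The part of sequencing depth in the calls was not tested.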
